A study of Mus musculus with 8 samples.

Results

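The SR proteins and the heterogeneous nuclear ribonucleoproteins (hnRNPs) are the main families of RNA-binding proteins that decide which exons of a pre-mRNA are joined. Members were taken by symbol: every protein-coding row of the count table named Srsf with a number or Hnrnp, together with Tra2a and Tra2b. The rule found 33 genes among the 38293 rows of the table, of which 11 are Srsf genes, 2 are Tra2 genes and 20 are hnRNP genes. It used no measured value, and it left out 2 processed pseudogenes of matching name that held at most 1 count in any library.

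The study compared untreated male C57BL/6 mice of 8 weeks of age, 4 wild-type (WT, replicates 1 to 4) and 4 with a knockout (KO, replicates 5 to 8) of Nbdy, named mORF4/NBDY in the labels, which encodes a microprotein of the mRNA decapping complex. One poly(A) RNA library was made from each left ventricle. How the allele was made is not described in the labels, and no separate litter or preparation day is given for any heart. A whole ventricle holds many cell types, so a lower level per cell and fewer cells of a type cannot be told apart.

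SR proteins carry RNA recognition motifs and a tail rich in arginine and serine. They bind exonic enhancers, recruit the spliceosome to nearby splice sites and, for several of them, help to export and translate the finished mRNA. Most hnRNPs coat nascent transcripts and often act against SR proteins by silencing exons, although some promote inclusion, and several also control mRNA stability and translation. Many genes of both families regulate their own level through an alternative exon with an early stop codon, often called a poison exon, whose inclusion sends the transcript to nonsense-mediated decay. In the heart, several Srsf genes are known from mouse knockouts to be needed for calcium handling and contraction.

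Reads from such exons may be part of the counts of these genes, so annotated sequences are shown first. In GENCODE M21, 11 of the 13 SR and Tra2 genes (84.6%) and 10 of the 20 hnRNP genes have at least 1 transcript annotated as a target of nonsense-mediated decay. Among all 12451 protein-coding genes tested the share was 28.8%, and among the 8606 with at least 4 annotated transcripts it was 38.3%. For 9 members, 7 of them SR or Tra2 genes, the early stop codon lies in an exon that overlaps no exon of the gene's protein-coding transcripts. The translated part of 6 of these exons is given 5′ to 3′ from the GENCODE M21 transcripts (GRCm38), with the stop codon in capitals. They come from both Tra2 genes, from Hnrnpl and its paralog Hnrnpll, and from the related Srsf3 and Srsf7, genes whose levels are described further on.
Tra2a: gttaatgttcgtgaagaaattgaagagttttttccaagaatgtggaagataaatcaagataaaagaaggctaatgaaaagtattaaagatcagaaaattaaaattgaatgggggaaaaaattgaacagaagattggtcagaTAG
Tra2b: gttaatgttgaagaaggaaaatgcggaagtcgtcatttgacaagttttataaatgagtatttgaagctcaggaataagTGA
Hnrnpl: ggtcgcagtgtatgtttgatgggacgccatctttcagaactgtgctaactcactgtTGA
Hnrnpll: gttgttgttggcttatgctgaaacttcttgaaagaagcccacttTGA
Srsf3: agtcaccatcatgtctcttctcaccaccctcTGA
Srsf7: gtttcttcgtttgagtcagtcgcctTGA
The exons lie at chr6:49252803-49253108 (minus strand) for Tra2a, chr16:22258986-22259261 (minus) for Tra2b, chr7:28817335-28817404 (plus) for Hnrnpl and chr17:80044940-80045022 (minus) for Hnrnpll. Those of Srsf3 and Srsf7 lie at chr17:29039454-29039909 (plus) and chr17:80204622-80205081 (minus). The exons of Tra2a and Tra2b, which are 306 and 276 bases long, begin with the same 9 bases. The exons of Hnrnpl and Hnrnpll are 70 and 83 bases long, and their runs of identical leading bases end after 1 base. The table holds 1 count per gene and library, so reads from transcripts with and without these exons are added together, and the share of poison-exon transcripts was not measured.

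Total counts ran from 11101901 to 14699949 per library, and 13336 genes had enough counts to be tested. Nbdy, the targeted gene, held 208 to 248 counts in the WT libraries and 115 to 137 in the KO libraries, or 19.0 to 20.1 and 9.58 to 10.4 CPM, so Nbdy RNA was lower in every KO library but still present. All 10 cardiomyocyte markers were measured, with a sum of 70990 to 84450 CPM (counts scaled to library size) in WT and 73390 to 86020 in KO. The summed markers of fibroblasts were 1149 to 1456 CPM in WT and 951.8 to 1219 in KO, of endothelium 1438 to 1716 and 1391 to 1735, of smooth muscle and pericytes 1207 to 1410 and 940.6 to 1581. Macrophage markers summed to 172.5 to 259.4 CPM in WT and 183.8 to 267.9 in KO, blood markers to 833.0 to 1814 and 1166 to 2175, and atrial markers to 264.4 to 481.0 and 456.9 to 713.1, mostly from Nppa, with Bmp10 at 0. Lymphocyte markers summed to 5.68 to 6.62 CPM in WT and 3.59 to 5.02 in KO, with only 2 of 8 tested, both lower in KO. The log2 fold change (KO against WT) was below 0 for 7 of 10 cardiomyocyte, 7 of 8 fibroblast and 5 of 8 endothelial markers. It was below 0 for 7 of 8 smooth muscle and pericyte, 5 of 8 macrophage and 1 of 9 blood markers. Of the 2 atrial markers tested, Nppa had 0.59 (standard error 0.19, edgeR adjusted p 0.711) and Myl4 -0.0025, both with groups that overlap. The atrial sum thus followed 1 gene, and the share of atrial tissue was not measured. Of all genes, 50.6% were below 0. No tested marker passed an adjusted p of 0.05 in edgeR.

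The hearts expressed 32 of the 33 members well enough to be tested, with 125 to 5753 counts per library. Srsf12 was the exception, with 2 counts in WT replicate 1, 1 count in KO replicate 7 and 0 in the other 6 libraries. The median level of the 32 tested members was 72.0 CPM, against 18.1 CPM for all genes tested, and 31 of them lay above that median gene. Together the SR and Tra2 genes took 0.123 to 0.187% of the counts of a library, and the hnRNP genes 0.202 to 0.254%.

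Levels between genes were compared per kilobase of annotated exon (CPM per kb). Srsf2, an SR protein of the nuclear speckles, was the most abundant member, at 88.2 ± 14.9 CPM per kb in WT, against 81.6 ± 8.11 in KO (SD, n = 4). The 4 WT hearts, in replicate order 1 to 4, gave 2832, 3129, 3774 and 2861 counts, and the 4 KO hearts, in order 5 to 8, gave 3834, 3390, 2679 and 2810. The exons of Srsf2 (ENSMUSG00000034120, chromosome 11 from 116849901 to 116853094, minus strand) overlap those of Mfsd11 and Mettl23 on the other strand, so its count is uncertain if strand was ignored. Srsf5, an enhancer-binding SR protein, followed at 75.5 ± 12.2 and 69.5 ± 7.67 CPM per kb. WT hearts gave 3739, 3655, 4103 and 3027 counts of Srsf5, KO hearts 4352, 3866, 3000 and 3364. The ranges of Srsf2 and Srsf5 overlapped in both genotypes.

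Srsf6, a further enhancer-binding SR protein, was the third SR gene by level, at 44.1 ± 6.54 CPM per kb in WT and 42.8 ± 3.68 in KO. WT hearts gave 2455, 2515, 2991 and 2289 counts, KO hearts 3094, 3047, 2290 and 2416. Srsf1, the founding SR protein, stood at 26.4 ± 2.44 and 24.4 ± 2.50 CPM per kb and Srsf4 at 21.9 ± 2.28 and 20.6 ± 1.44. Srsf9, Srsf11 and Srsf7 lay close together, with means over 8 libraries of 18.3, 17.9 and 17.4 CPM per kb, and Srsf3, the smallest SR protein, at 15.4. Tra2a (10.3), Srsf10 (5.27) and Tra2b (3.60) were the least abundant tested members of the family. Both Tra2 proteins bind GAA-rich exonic enhancers, and Srsf10 works as a repressor when it loses its phosphates.

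Of the hnRNP genes, Hnrnpa2b1, whose protein also sorts mRNAs and microRNAs, led with 67.9 ± 5.71 CPM per kb in WT, against 58.4 ± 5.54 in KO (SD, n = 4). Hnrnpab, a CArG-box and RNA-binding protein, had 58.3 ± 6.62 and 56.8 ± 2.71, from 1791, 1943, 1823 and 2304 counts in WT and 2277, 2114, 1972 and 1916 in KO. Hnrnpl, which binds CA repeats, had 45.5 ± 8.25 and 53.3 ± 6.65. Hnrnph1 (43.3 over 8 libraries), a binder of G-runs, came next, before Hnrnpa0, Hnrnpdl, Hnrnph3 and Hnrnpk at 21.6 to 25.8 CPM per kb. Hnrnpu, a scaffold attachment factor, stood at 17.1, Hnrnpc, which binds uridine tracts of nascent transcripts, at 16.8, and Hnrnpm at 14.6. Hnrnpa1, the best studied exon silencer, stood at 13.9, but near-identical processed copies exist that may take or give reads, and how such reads were counted is not given in the sources used here. Hnrnpa3, Hnrnpul2, Hnrnpd, Hnrnpul1, Hnrnph2 and Hnrnpf followed, from 9.56 down to 4.40.

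Hnrnpll, at 2.16 in WT and 1.83 in KO, and Hnrnpr, at 1.03 over 8 libraries, were lowest per kb. Exon length weighs on this order, since Hnrnpr has 22199 bases of annotated exon. With the longest transcript as the length, the same 3 SR genes and the same 3 hnRNP genes led.

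**Figure D1:**
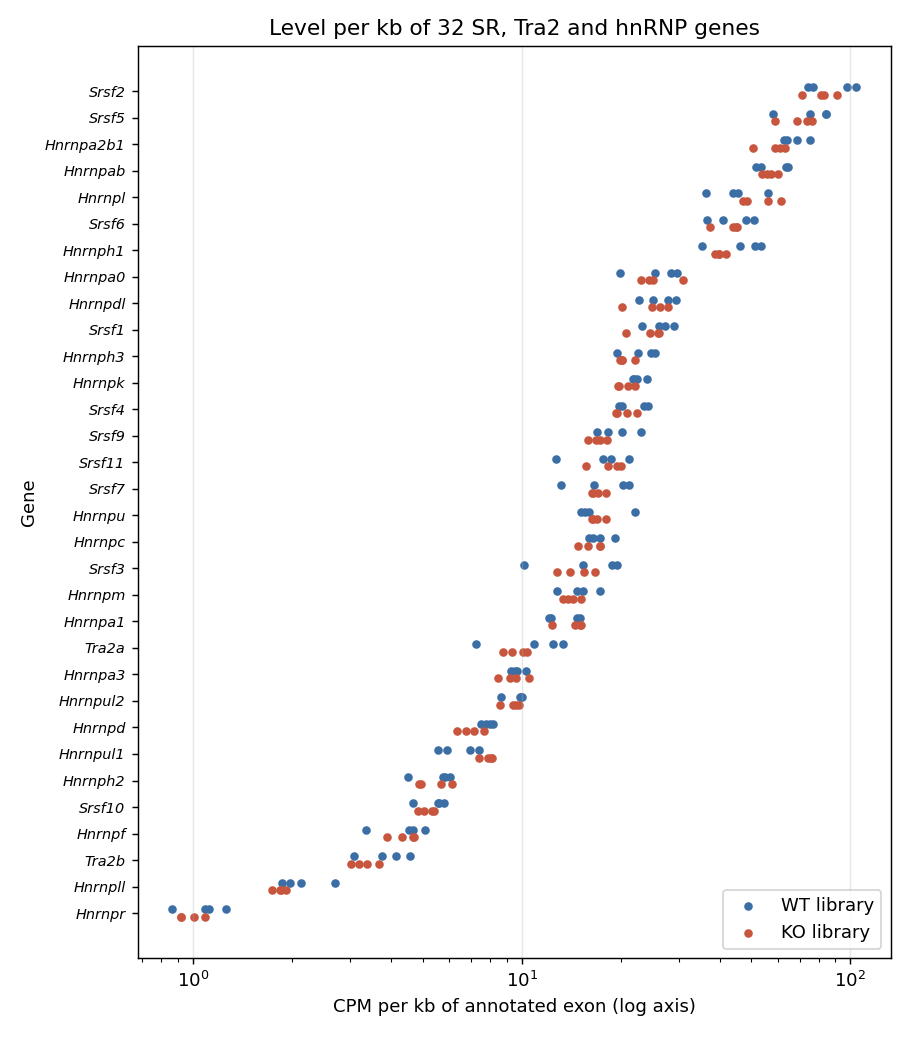
Level of each tested member in CPM per kb of annotated exon (log axis), 1 point per library, WT in blue and KO in red. Srsf2 and Srsf5 lead and Hnrnpr is lowest, and the WT and KO points of every gene overlap.

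The comparison of KO with WT asked whether the RNA level of these splicing regulators differs in hearts of the Nbdy KO. No member passed the test: 0 of 32 reached the 0.05 threshold of edgeR's adjusted p, where 0.0225% of all genes did (0.015% higher in KO, 0.0075% lower). DESeq2 likewise called 0 members, and 0.0825% of all genes. At an unadjusted p under 0.05 there was 1 member (Hnrnpul1), against 6.4% of all genes (3.5% higher in KO, 2.89% lower). The WT and KO libraries of every tested member overlapped in CPM, while 4.12% of all genes had groups that do not overlap (2.14% higher, 1.98% lower). The adjusted p of the members lay between 0.734 and 0.998.

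The data bound the size of any change. The 95% interval of the fold change lay within 1.5-fold in either direction for each of the 32 tested members, against 61.9% of all genes. The share over all genes was not matched for level, and the median was 72.0 CPM for the members and 18.1 CPM for all genes. With no filter on low counts that share was 39.6%, and with a filter of 1 CPM in 4 libraries it was 63.4%. Whether genes of like level differ from the members in this respect was not tested. The widest bounds of the members were -0.54 (Tra2a) and 0.54 (Hnrnpl) on the log2 scale. On that scale the standard error (SE) had a median of 0.13 over the members and 0.16 over all genes. With 1 library left out, 29 to 32 members stayed within 1.5-fold, and the genes outside were among Hnrnpl, Hnrnpul1, Hnrnpll, Srsf3, Tra2a and Tra2b. With every library kept but counts scaled to library totals, 31 members stayed within 1.5-fold and Tra2a did not.

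Most fold changes leaned slightly below 0. The log2 fold change was under 0 for 11 of 12 SR and Tra2 genes and 16 of 20 hnRNP genes, 27 of 32 in all, where 50.6% of all genes tested were under 0. The median was -0.11 for SR and Tra2 genes, -0.06 for hnRNP genes and -0.0032 for all genes. After removal of a trend with GC content and length in each library, 20 of 32 members were under 0, beside 53.1% of all genes, and the medians were -0.03 for both families. The median GC content of the members' longest transcripts was 43.6%, and that of all protein-coding genes tested was 49.9%. Without WT replicate 2, 21 of 32 were under 0. With 1 library left out, the median of the SR and Tra2 genes was lowest without WT replicate 4, at -0.19, and highest when WT replicate 3 was dropped, at -0.05. The median of the hnRNP genes was -0.10 without WT replicate 1 and -0.02 without WT replicate 2.

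**Figure D2:**
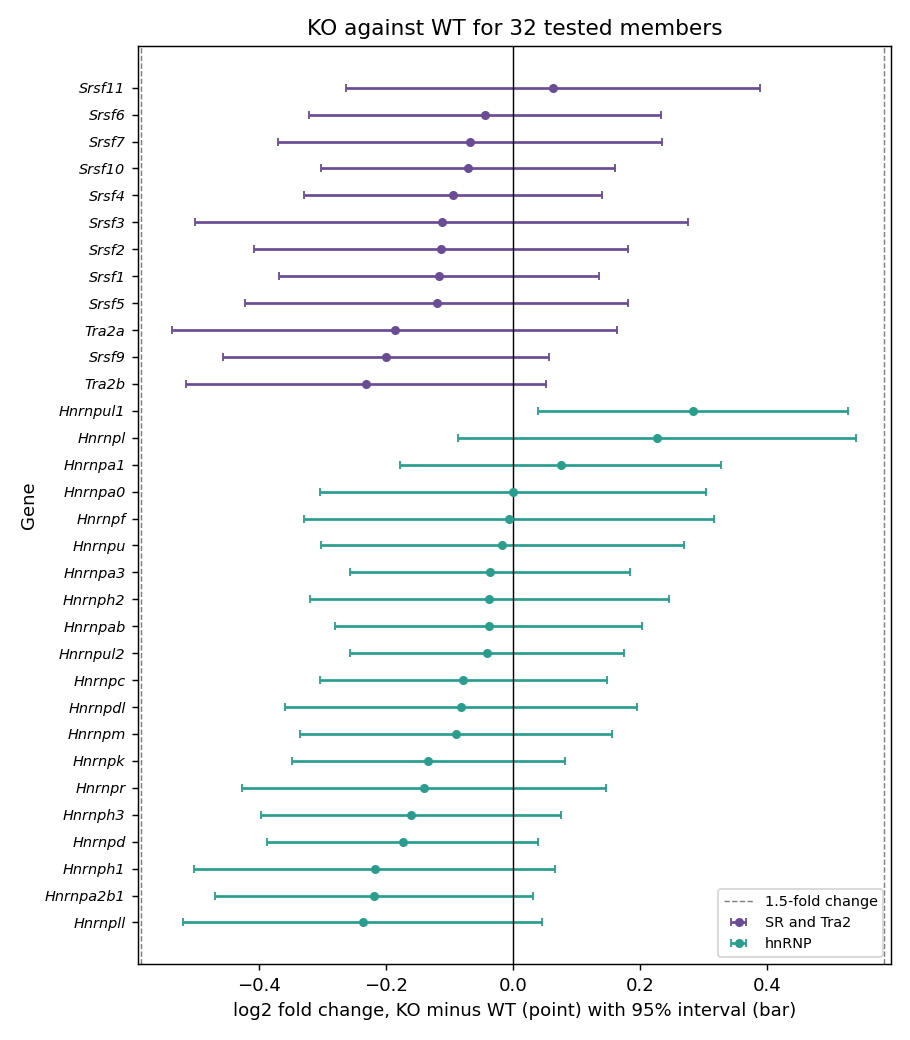
Log2 fold change of KO against WT with its 95% interval for the 32 tested members, SR and Tra2 genes above and hnRNP genes below; dashed lines mark a 1.5-fold change. The intervals of 31 members include 0, that of Hnrnpul1 runs from 0.04 to 0.53, and all end inside the dashed lines.

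The member with the smallest p was Hnrnpul1, a relative of Hnrnpu that takes part in transcription and DNA repair. WT hearts gave 799, 521, 626 and 783 counts, KO hearts 1002, 982, 868 and 733. The WT mean was 55.9 ± 7.55 CPM, the KO mean 68.0 ± 2.73 (SD, n = 4). The lowest KO library, at 64.14 CPM, sat just under the highest WT library, at 64.15. On the log2 scale KO exceeded WT by 0.28 ± 0.11 (SE; edgeR adjusted p 0.734). Hnrnpul1 (ENSMUSG00000040725) lies on chromosome 7 from 25721165 to 25754757 on the minus strand of GRCm38. Its unadjusted p stayed under 0.05 after the GC content and length correction, and rose above it when KO replicate 5, 6 or 7, WT replicate 2 or WT replicate 3 was left out or when counts were scaled to library totals.

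Hnrnpa2b1 (ENSMUSG00000004980, chromosome 6 from 51460932 to 51469894, minus strand) held 5166, 5399, 5554 and 5501 counts in the WT libraries and 5753, 5455, 4236 and 4743 in the KO libraries. In CPM the WT libraries stood at 414.8 to 497.6 and the KO libraries at 332.3 to 415.0, so the highest KO library only just reached the WT range. KO differed from WT by -0.22 ± 0.12 on the log2 scale (SE; edgeR adjusted p 0.783). Hnrnpd, also known as AUF1, binds AU-rich elements and promotes mRNA decay. WT hearts gave 731, 622, 678 and 781 counts and KO hearts 808, 656, 632 and 600, or 57.9 ± 1.97 and 51.3 ± 4.27 CPM. Of the KO libraries, 3 lay below the WT range and replicate 5, at 56.6 CPM, inside it. For Hnrnpd the log2 fold change was -0.17 ± 0.10 (SE; edgeR adjusted p 0.787).

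Hnrnph1 (chromosome 11 from 50376990 to 50386528, plus strand) held 3363, 3247, 3814 and 2698 counts in WT and 3331, 3433, 2964 and 2585 in KO. The KO libraries lay close together, at 226.2 to 243.6 CPM, while the WT libraries spread from 207.2 in replicate 4 to 311.6 in replicate 3. Hnrnph1 had a fold change of -0.22 ± 0.13 on the log2 scale (SE; edgeR adjusted p 0.797), and -0.33 without WT replicate 4.

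The paralogs Hnrnpl and Hnrnpll, which bind related CA-rich sites and whose poison exons are printed above, stood on opposite sides of 0, neither past the test. Hnrnpl (chromosome 7 from 28808541 to 28822266, plus strand) held 4176, 2345, 3202 and 3529 counts in WT and 5213, 4715, 3581 and 3300 in KO, which is 271.0 ± 49.1 and 317.3 ± 39.6 CPM. WT replicate 1, at 335.3 CPM, was above 3 of the 4 KO libraries, and the other WT libraries were below all of them. Its log2 fold change was 0.23 ± 0.14 (SE; edgeR adjusted p 0.797), with 0.35 without WT replicate 1 and 0.13 without WT replicate 2. Hnrnpll (chromosome 17 from 80029487 to 80062334, minus strand) held 286, 341, 267 and 323 counts in WT and 320, 285, 273 and 247 in KO. Its KO libraries stood at 20.2 to 22.4 CPM and its WT libraries at 21.8 to 31.4, the highest being replicate 2. For Hnrnpll the fold change was -0.24 ± 0.13 in log2 (SE; edgeR adjusted p 0.784), and -0.115 without WT replicate 2.

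Among the SR and Tra2 genes, Tra2b and Srsf9 had the smallest p. Tra2b (chromosome 16 from 22244549 to 22266005, minus strand) held 433, 457, 469 and 372 counts in WT and 398, 477, 375 and 357 in KO. The lowest library of all 8 was KO replicate 5, at 27.9 CPM, and the next was WT replicate 4, at 28.6, while WT replicate 2 was highest, at 42.1. Tra2b had a log2 fold change of -0.23 ± 0.13 (SE; edgeR adjusted p 0.784), and of -0.15 without WT replicate 2. Srsf9, a short SR protein related to Srsf1 (chromosome 5 from 115327177 to 115333080, plus strand), held 349, 362, 465 and 393 counts in WT and 428, 404, 354 and 301 in KO. This was 32.4 ± 4.33 and 28.2 ± 1.52 CPM, with WT replicate 1, at 28.0, inside the KO range. Srsf9 differed by -0.20 ± 0.12 in log2 (SE; edgeR adjusted p 0.797), and by -0.117 without WT replicate 3.

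**Figure D3:**
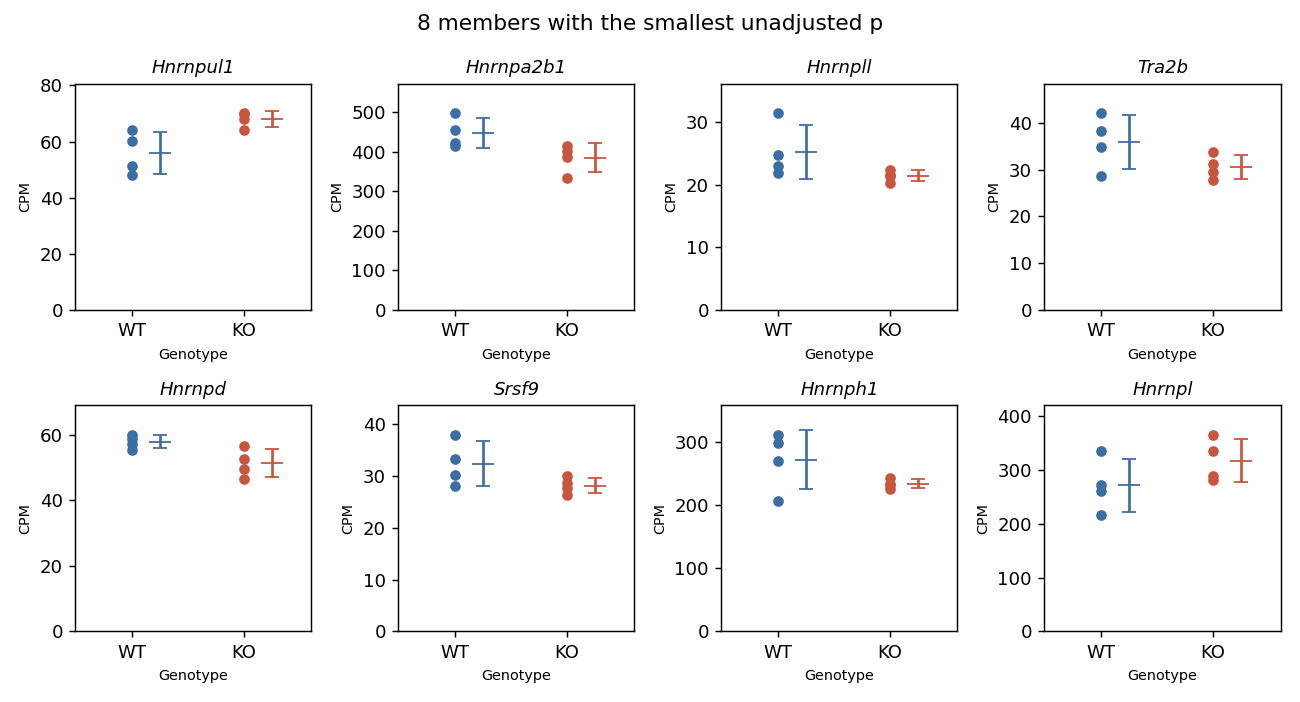
CPM of the 8 members with the smallest unadjusted p, 1 point per library, with the mean and SD of the 4 WT and 4 KO hearts. In each panel the WT and KO points overlap, most narrowly for Hnrnpul1 and Hnrnpa2b1.

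The remaining SR and Tra2 genes had log2 fold changes from -0.19 (Tra2a) to 0.06 (Srsf11). Tra2a had an SE of 0.16, and its WT libraries ran from 50.5 CPM in replicate 4 to 92.5 in replicate 2. Its log2 fold change was -0.345 without WT replicate 4, -0.123 without WT replicate 3 and -0.08 without WT replicate 2. Srsf5 had -0.12 ± 0.14, Srsf1 -0.12 ± 0.12, Srsf2 -0.11 ± 0.14, Srsf4 -0.09 ± 0.11, Srsf10 -0.07 ± 0.11, Srsf7 -0.07 ± 0.14 and Srsf6 -0.04 ± 0.13 (log2, SE). Srsf3, with a log2 fold change of -0.11 ± 0.18 (SE), varied most between hearts of a genotype, with a within-group SD of 0.33 on the log2 scale. Its WT libraries held 121.1, 148.2, 154.4 and 80.2 CPM and its KO libraries 122.3, 131.6, 101.3 and 110.8. With 1 library left out, its log2 fold change ran from -0.28 (WT replicate 4) to -0.0029 (WT replicate 3).

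The remaining hnRNP genes lay between -0.16 and 0.08. Hnrnph3 had a log2 fold change of -0.16 ± 0.11 (SE), Hnrnpr -0.14 ± 0.13 and Hnrnpk, which binds C-rich stretches, -0.13 ± 0.10. Hnrnpm, Hnrnpdl and Hnrnpc lay between -0.09 and -0.08, and Hnrnpa1 stood at 0.08 ± 0.12. The other 6, Hnrnpul2, Hnrnpab, Hnrnph2, Hnrnpa3, Hnrnpu and Hnrnpf, had values between -0.04 and -0.0065, and Hnrnpa0 was at 7.28e-04 ± 0.14. For 12 members the sign of the log2 fold change turned in at least 1 alternative, counting both other processing and runs with 1 library left out.

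Summed over genes, the SR and Tra2 family reached 1469.1, 1699.5, 1716.3 and 1206.9 CPM in the WT hearts, and 1494.2, 1456.0, 1306.0 and 1463.5 in the KO hearts. The means were 1523 ± 239 and 1430 ± 84.2 CPM (SD, n = 4 each), a ratio of 0.939, and the WT libraries enclosed all KO libraries. The hnRNP family stood at 2288.6, 2476.6, 2333.1 and 2197.1 CPM in WT and 2328.4, 2251.7, 2061.6 and 2246.2 in KO. Here the means were 2324 ± 117 and 2222 ± 113, a ratio of 0.956, and the groups overlapped.

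**Figure D4:**
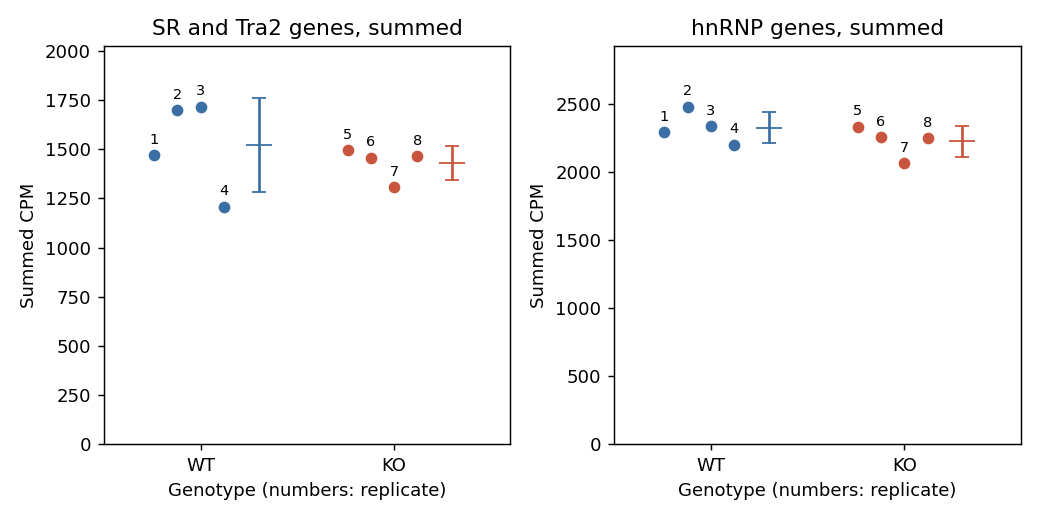
Summed CPM of the 12 tested SR and Tra2 genes and of the 20 hnRNP genes in each library, with the mean and SD of each genotype. The WT sums of the SR and Tra2 genes run from 1207 to 1716 CPM and enclose the KO sums, and those of the hnRNP genes overlap.

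The SR and Tra2 genes differed between WT hearts by more than between the genotype means. Each gene's log2 level in a library was set against that gene's mean over the 8 libraries. In WT replicate 2 all 12 tested SR and Tra2 genes were above their own mean, by a median of 0.22, and in WT replicate 3 there were 11, by a median of 0.23. In WT replicate 4 only 1 of the 12 was above its mean, and the median was -0.22. The KO libraries had medians from -0.14 (replicate 7) to 0.03 (replicate 5). WT replicate 3 was the highest library for 6 of the genes, WT replicate 2 for 5, and WT replicate 4 the lowest for 7. Over all genes these libraries were the highest for 12.6% and 19.8% and the lowest for 13.1%. The median of all genes lay between 0.00057 and 0.012 in every library.

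Among hnRNP genes the spread was smaller, with medians from -0.12 (KO replicate 7) to 0.16 (WT replicate 2), and WT replicate 4 was at 0.03. The SD was larger among WT than among KO libraries for 27 of the 32 members, against 64.9% of all genes. Scaled to library totals, the SR and Tra2 median was 0.35 in WT replicate 3 and -0.19 in WT replicate 4. Under that scaling WT replicate 3 was the highest library for 11 genes and WT replicate 2 for 1, and WT replicate 4 and KO replicate 7 were each the lowest for 4. With the GC content and length trend removed, no SR or Tra2 gene was above its mean in WT replicate 4, whose median was then -0.24. These library patterns were described after the data were seen, and they carry no test. WT replicate 4 also had the lowest summed atrial markers, at 264.4 CPM, but this rested on Nppa, which gave 259.6 CPM of it. Myl4, the other atrial marker tested, was not lowest there, since KO replicates 7 and 8 held less of it. WT replicate 1 had the highest share of mitochondrially encoded counts, 29.2% against 19.4 to 26.7% in the others. The part of Nppa and of the mitochondrial share in the pattern was not tested.

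**Figure D5:**
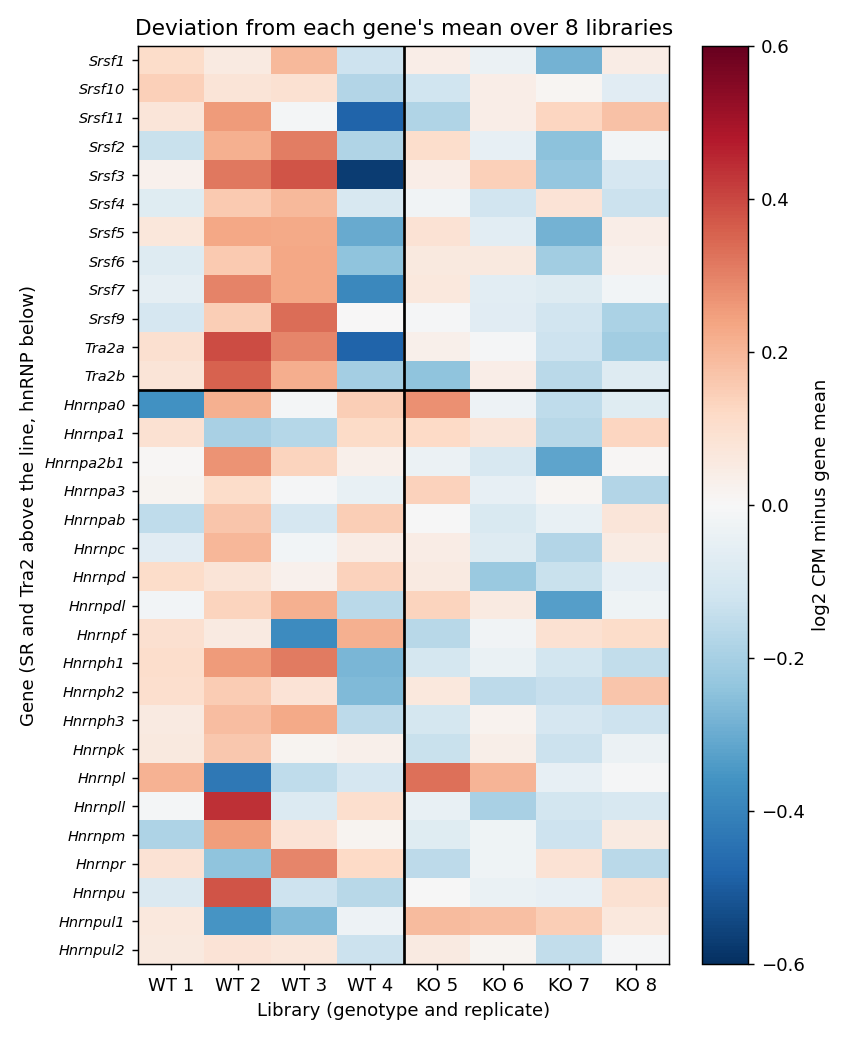
Heat map of the deviation of each member's log2 CPM from its own mean over the 8 libraries. Rows are genes, SR and Tra2 above the line and hnRNP below, and columns are libraries. Most SR and Tra2 genes are above 0 in WT replicates 2 and 3 and below 0 in WT replicate 4.

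Genes that act with these proteins were read from 5 lists. In each list 0 tested genes passed an adjusted p of 0.05 in edgeR or DESeq2, and the counts at an unadjusted p under 0.05 stand beside 6.4% of all genes. The SR kinase list held 15 kinases, phosphatase subunits and nuclear transport factors, with the mRNA export receptor Nxf1 among them. Of these genes, 7 were above 0 and 8 below, with a median log2 fold change of -0.01. None had an unadjusted p under 0.05. The smallest p was that of Ppp1cb, a catalytic subunit of protein phosphatase 1, at 254.8 ± 31.1 CPM in WT and 215.6 ± 19.5 in KO (adjusted p in edgeR 0.777).

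Of 29 SR-related and exon junction genes, 11 were above 0 and 18 below, the median was -0.04 and 1 had an unadjusted p under 0.05. This was Srrm2, a scaffold of nuclear speckles, at 288.0 ± 101 CPM in WT and 412.5 ± 49.0 in KO, a log2 difference of 0.52 ± 0.20 (SE; edgeR adjusted p 0.734). Its highest WT library, replicate 1 at 426.3 CPM, lay above 3 of the KO libraries. Rsrc1 and Magoh, named after their values were seen, were the only genes of this list whose groups did not overlap, both lower in KO, which is 2 of 29 where 1.98% of all genes were lower without overlap.

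The 29 tested RNA-binding genes classed with hnRNPs under other symbols had 11 above 0 and 18 below, with a median of -0.04 and 1 at an unadjusted p under 0.05. Cirbp, a cold-inducible RNA-binding protein, was that gene, at 65.2 ± 3.38 CPM in WT and 79.1 ± 13.9 in KO (adjusted p in edgeR 0.772). The 46 tested genes of 3′ splice site recognition and the core spliceosome had 24 above 0 and 22 below, with a median of 0.0068, and 2 higher and 3 lower at an unadjusted p under 0.05. Snrpa, a protein of the U1 snRNP particle, stood at 17.6 to 24.2 CPM in WT and 25.6 to 31.0 in KO, groups that do not overlap. Snrpe and Sf3a3, named after their values were seen, also had groups without overlap, lower in KO, so this list held 1 higher and 2 lower of 46, beside 2.14% and 1.98% of all genes. For Snrpa the log2 difference was 0.43 ± 0.13 (SE; edgeR adjusted p 0.711). Of the 12 factors of nonsense-mediated decay, which degrades the poison-exon transcripts, 7 were above 0 and 5 below, with a median of 0.07 and none at an unadjusted p under 0.05. Smg6, the endonuclease of that pathway, had the smallest p, at 23.2 ± 4.46 CPM in WT and 27.2 ± 4.07 in KO (adjusted p in edgeR 0.804).

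WT replicate 4 was also low in several of these lists. Its summed level was 1161 CPM for the SR kinase list, against 1274 to 1416 in the other libraries, 2403 CPM for SR-related and exon junction genes, against 2903 to 3204, and 386.5 CPM for decay factors, against 450.1 to 478.0. For hnRNP-like genes under other symbols KO replicate 7 was lower, and for the core spliceosome WT replicate 1.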

How the data were processed

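Poly(A) RNA from the left ventricles of 4 WT and 4 KO mice was sequenced from Illumina TruSeq stranded libraries, per the labels' protocols. The authors deposited whole-number counts per gene and library, not normalized. The submitters' processing notes name STAR 2.7.1a and GRCm38 (mm10). How reads were assigned to genes, with which annotation and strand setting, is not given in the sources used here. Exons of 14 members overlap those of another gene, 11 on the opposite strand, and such counts are uncertain.

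GENCODE M21 gave a symbol to 36429 of the 38293 rows; the rest took 0.187% or less of any library. Low genes were removed with filterByExpr at a minimum count of 10. After TMM scaling, KO and WT were compared by the quasi-likelihood test of edgeR 4.0.16 in R 4.3.3, with p-values adjusted by Benjamini-Hochberg over 13336 genes. The SE was derived as the absolute log2 fold change divided by the square root of the test's F statistic. Intervals are 95%, were built from this SE with a quantile of the t distribution, and are approximate. CPM are computed with TMM library sizes. Alternatives used DESeq2 1.42.0, limma 3.58.1 (voom), sva 3.50.0, other scalings and filters, a GC content and length correction (values for 99.2% of genes and 32 members) and each library left out. The labels do not say that the hearts came from separate litters or days, so p-values measure the spread between these libraries, 1 per heart. No 2 libraries, of the same or of different groups, agreed within counting error (chi-square 11.5 to 60 per degree of freedom over all pairs).

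On simulated counts of 13212 genes for this comparison, the test recovered 35.1% of 57 genes changed 1.5-fold, 91.8% of 73 changed 2-fold and 100% of 70 changed 4-fold, with 6 calls among 13012 unchanged genes. The simulation gave every gene the same dispersion and changed only genes above a floor of counts. It also held many more changed genes than the 3 called in the real data, and an adjusted p of 0.05 is easier to reach when more genes change. The real genes differ in spread, so these shares are a rough guide and may be too high for the real comparison.

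The members and lists were chosen with earlier results of these data known. Counts in every library are given for the 8 members with the smallest unadjusted p, the 3 with the highest CPM per kb in each family and the untested member, and from each list of other splicing genes the 1 with the smallest p is named. Of the core spliceosome list, 46 of 47 genes were matched to a row; Ralyl, of the hnRNP-like list, was at 0. Protein sequences were not used here.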

Additional observations from a re-analysis of the deposited data

Results flagged for a closer look

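In 4 of the 64 sets of 4 libraries (32 members in 2 genotypes), 1 library lay far from the other 3, with a gap to its nearest neighbour too large for its range by Dixon's criterion. Chance gives about 1 in 20. Hnrnph3 stood at 69.5 CPM in KO replicate 6, against 62.8 to 63.7 in the other KO libraries. Hnrnpu stood at 256.0 CPM in WT replicate 2, where the other WT hearts had 175.0 to 185.0; when it was left out, the log2 fold change was 0.13 in place of -0.02. Hnrnpul2 stood at 61.5 CPM in WT replicate 4, against 70.0 to 71.2. Srsf6 stood at 180.0 CPM in KO replicate 7, against 211.0 to 217.0.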

How the results depend on the processing

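No member passed an adjusted p of 0.05 under any alternative run; the smallest was 0.308 (Hnrnpul1, edgeR without WT replicate 1). The 3 genes called among all genes became 11 with DESeq2, 10 with no filter on low counts and 5 with 1 surrogate variable, and 2 to 6 with 1 library left out (5 without WT replicate 1, 6 without WT replicate 4). Members at an unadjusted p under 0.05 numbered 3 with library totals (Hnrnpa2b1, Hnrnpd and Hnrnpll). With 1 library left out there were 0 to 5: 0 without WT replicate 2 or KO replicate 5, 6 or 7, 3 without WT replicate 1 (Hnrnpl, Hnrnpul1 and Srsf9) and 5 without WT replicate 4 (Hnrnph1, Hnrnph3, Hnrnpul1, Tra2a and Tra2b). Scaling to library totals moved the median of all genes to -0.05. Of the 18 alternatives per member, 541 values kept their sign and 35 turned, in 12 members, with main values from -0.0816 to 0.0636; the cause was not tested. The turned log2 fold changes were -0.0491 for Hnrnpa0 with library totals and 3.33e-04 for Hnrnpf with limma-voom. With 1 surrogate variable they were 0.0118 for Hnrnpab, 0.00269 for Hnrnpf, 0.0939 for Hnrnpu and 0.0117 for Srsf7. With the GC content and length trend removed they were -0.0779 for Hnrnpa0, 0.0374 for Hnrnpa3, 0.0209 for Hnrnpc, 0.0221 for Hnrnpf, 0.0515 for Hnrnph2, 0.0212 for Hnrnpu, 0.0179 for Srsf10, 0.0394 for Srsf6 and 0.0572 for Srsf7. With 1 library left out the values ran from -0.106 to 0.0741 for Hnrnpa0, -0.0912 to 0.0143 for Hnrnpa3, -0.0917 to 0.0127 for Hnrnpab, -0.151 to 0.00507 for Hnrnpdl, -0.121 to 0.0643 for Hnrnpf, -0.129 to 0.00734 for Hnrnph2, -0.0778 to 0.127 for Hnrnpu, -0.068 to 0.166 for Srsf11, -0.129 to 0.0275 for Srsf6 and -0.193 to 0.0258 for Srsf7. Of the members whose sign held with every library left out in turn, Srsf1, Srsf2, Srsf4, Srsf5, Srsf10, Hnrnpa1, Hnrnpc, Hnrnpm, Hnrnpr and Hnrnpul2 also moved by over 1.5 times when 1 library was left out. The scalings of the library pattern and the alternatives for the count of intervals within 1.5-fold were chosen after seeing the data. No paired analysis was possible because the labels link no WT heart to a KO heart by litter, day or replicate number (WT 1 to 4, KO 5 to 8). With 4 hearts per genotype, changes of 1.5-fold or less are mostly below what the test can call, and counts per gene cannot show a shift between productive and poison-exon transcripts.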
